A study of Mus musculus with 16 samples.

Results

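The CTCF regions described here are stretches of the mouse genome at which the authors called a CTCF ChIP-seq peak in neural progenitor cells (NPCs), in embryonic stem (ES) cells grown in serum and in ES cells grown in 2i. The peaks of the 3 deposited lists were merged wherever they overlapped by at least 1 bp, and a merged region was kept when it held a peak of each list. Of 60688 merged regions, 26435 were kept, which was 43.6%. Positions are 1-based mm9 coordinates.

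The NPCs came from whole brains of newborn mice (P1) of the strain 129SvJae x C57BL/6 that carried the Sox2-eGFP allele. They were grown as neurospheres and plated on laminin 1 day before fixation. The ES cells were V6.5, a male line of the same strain background, fed either with serum and LIF or with serum-free 2i medium holding LIF, CHIR99021 and PD0325901, and moved from feeder cells to gelatin before fixation. None of the cells was otherwise treated, and all 3 ChIP libraries were made with the same anti-CTCF antibody from Millipore. Each condition had 1 CTCF library in the labels, so no difference between the lists has a replicate check, and cell type cannot be told apart from cell origin or library. The same 3 conditions also had 2 5C libraries each, which count contacts between restriction fragments at 7 loci.

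CTCF is a zinc-finger protein that binds DNA at a long motif and holds the cohesin ring on the chromosome. Cohesin extrudes loops of chromatin until it meets CTCF, so that bound sites often lie at the feet of loops and at the borders of topological domains. Many CTCF sites are known to be bound in most cell types, while others are bound in some cell types only.

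Nearly all peaks of the NPC list lay in regions found in all 3 lists. The NPC list held 28860 peaks, of which 92.5% (95% exact Clopper-Pearson interval 92.1% to 92.8%) were in such a region. In the ES serum list of 50185 peaks the share was 52.8% (52.4% to 53.2%), and in the ES 2i list of 56138 peaks it was 47.3% (46.9% to 47.7%). These intervals cover counting error only. The ES lists were longer than the NPC list, and the remainder of their peaks fell mostly in 20068 regions that both ES lists held and the NPC list did not. When each list was limited to the 28860 peaks of highest fold enrichment, the share was 64.2% in NPCs, 63.6% in serum and 63.6% in 2i. With lists of equal length and nearly always 1 peak of each list in a shared region, the 3 shares have to be almost the same, so that they show the size of the common part and no difference between conditions. Regions of a single list numbered 1119 for NPCs, 3177 for ES cells in serum and 8832 for ES cells in 2i. A further 416 regions were in the NPC and ES serum lists only, and 641 in the NPC and ES 2i lists only.

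The shared regions took up most of the strong peaks of each list. Fold enrichment here is the authors' value per peak, a ratio over the local background computed by the peak caller, and it was used to describe and order peaks within a list. Peaks of a list were ordered by it and split into deciles. In the highest decile of NPC peaks 99.8% were in regions of all 3 lists, and in the lowest decile 80.6% were. In the ES serum list the share was 95.1% in the highest decile and 12.2% in the lowest. In the ES 2i list it was 89.7% in the highest decile and 9.28% in the lowest. The share went up with every decile in each list. Since a region had to pass the peak caller in all 3 libraries, stronger peaks had more chance to enter, and the gradient is a description of the selection.

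**Figure D1:**
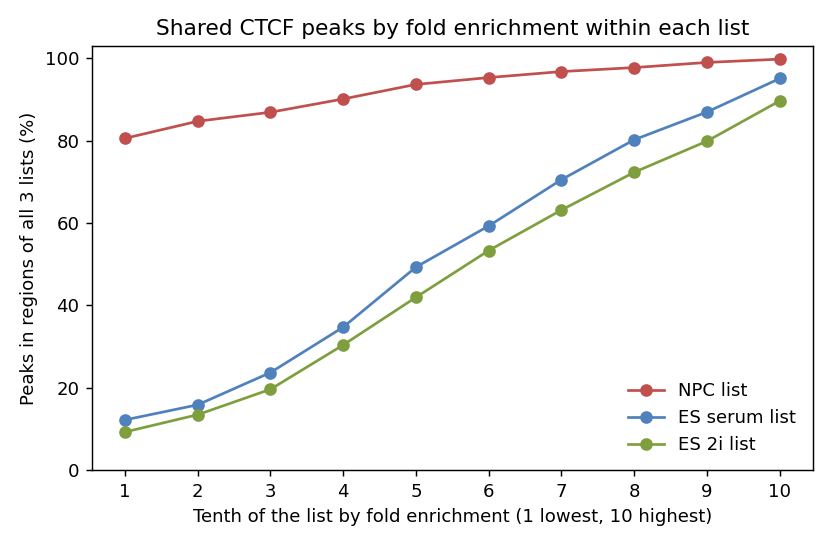
The share of peaks (%, vertical axis) that lie in regions of all 3 lists, for each decile of a list ordered by fold enrichment (horizontal axis, 1 lowest and 10 highest). Each line is 1 list from 1 library; the NPC line runs between 80.6% and 99.8%, and the ES serum and ES 2i lines start at 12.2% and 9.28%.

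Peaks in shared regions had higher fold enrichment and were wider than the other peaks of the same list. In the NPC list the median fold enrichment was 15.6 for the 26684 peaks in shared regions and 10.5 for the 2176 others. In the ES serum list it was 24.5 for 26498 peaks and 12.3 for 23687 others, and in the ES 2i list 22.9 for 26565 peaks and 12.2 for 29573 others. The interquartile range of peaks in shared regions was 11.4 to 21.5 in NPCs, 17.5 to 32.8 in serum and 16.8 to 30.4 in 2i. The distributions overlapped in every list. The folds of different lists are not on a common scale, because each library has its own background.

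**Figure D2:**
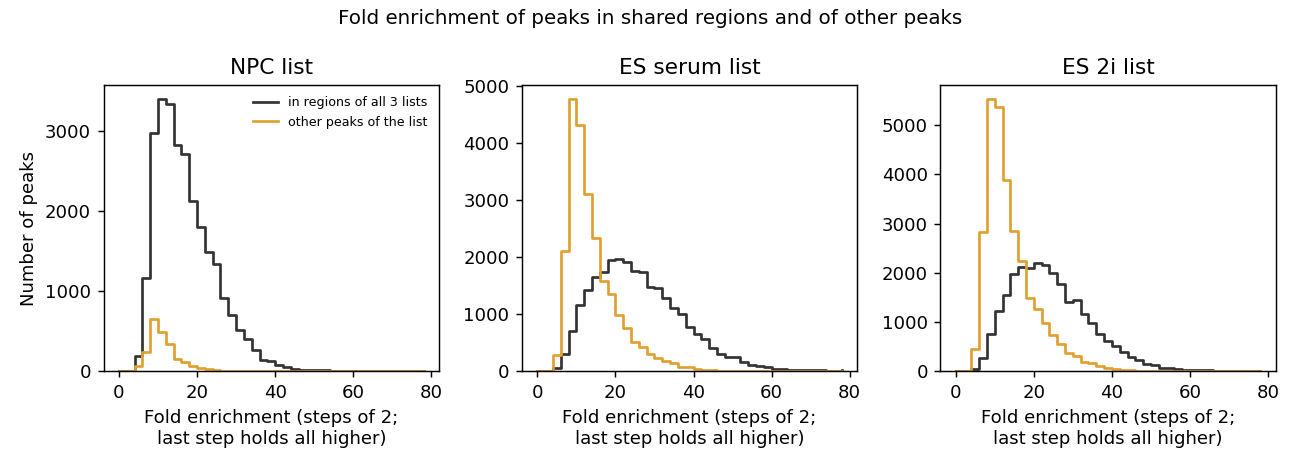
Number of peaks (vertical axis) by the authors' fold enrichment (horizontal axis) in the NPC, ES serum and ES 2i lists. Black steps are peaks in regions of all 3 lists and orange steps the other peaks of the list; the medians are 15.6 and 10.5 in NPCs, 24.5 and 12.3 in serum, and 22.9 and 12.2 in 2i.

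The median width of a peak in a shared region was 211 bp in the NPC list, 366 bp in the ES serum list and 329 bp in the ES 2i list. The other peaks of these lists had medians of 155, 254 and 234 bp. The narrowest peak of any kind measured 123 bp in the NPC list, 163 bp in the ES serum list and 152 bp in the ES 2i list, so the lower limit of width differed between libraries in the same order as the medians, and its part in the widths was not tested. Within a shared region the NPC peak was the narrowest of the 3 in 93.9% of cases, and it lay wholly inside the ES serum peak in 90.3% and inside the ES 2i peak in 84.0%. Merging added little to the widest peak of a region: the ratio of the merged width to that of the widest peak had an upper quartile of 1.03.

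Merged, the shared regions had a median width of 391 bp (95% exact binomial interval of the median 390 to 393 bp), with an interquartile range of 328 to 464 bp and extremes of 171 and 1897 bp. Regions in both ES lists only had a median of 294 bp. Those in the NPC and ES serum lists had 224 bp, and those in the NPC and ES 2i lists 212 bp. Regions of the NPC list alone had a median of 152 bp, of the ES serum list alone 195 bp and of the ES 2i list alone 189 bp. In 26081 shared regions, or 98.7%, each list had exactly 1 peak. Pairs of NPC peaks stood in 239 regions and triplets in 5, while 63 regions had 2 ES serum peaks and 130 had 2 ES 2i peaks. The widest region, chr19:5567353-5569249, held 1 ES serum peak of 1897 bp together with 3 NPC peaks and 2 ES 2i peaks.

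The position of strongest signal, the summit, was nearly the same in the 3 lists. The rule asked only for overlap, so summit distance is limited by the width of the peaks but was not chosen directly. The 3 summits of a region spanned a median of 23 bp, and 92.9% of regions had all 3 within 50 bp. The NPC summit lay a median of 14 bp from the ES serum summit and 14 bp from the ES 2i summit, and the ES serum summit 13 bp from the ES 2i summit. The signed distances had a median of 0 bp for each pair of lists. For NPCs against serum, 90% of them lay between -37 and 37 bp. The NPC summits were thus about as far from either ES list as the ES lists were from each other.

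**Figure D3:**
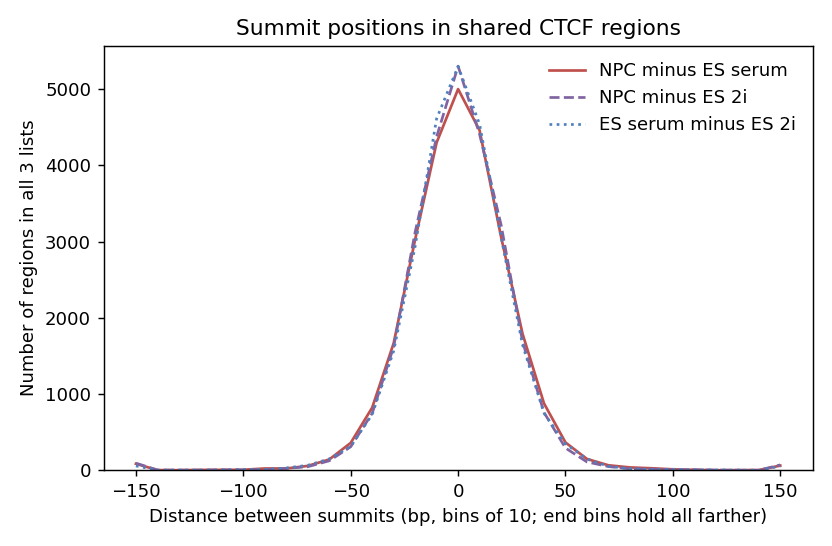
Signed distance between the summits of 2 lists (horizontal axis, bp) against the number of regions in all 3 lists (vertical axis). The curves for NPC minus ES serum, NPC minus ES 2i and ES serum minus ES 2i lie on each other and are centred at 0 bp.

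Summits in shared regions were closer together than in regions of both ES lists only. Between the ES serum and ES 2i summits, the median distance was 13 bp in shared regions and 18 bp in regions of both ES lists only. The distance was at most 50 bp in 96.7% of shared regions and in 90.0% of those of both ES lists only. Peaks in shared regions also had higher fold enrichment than the other peaks of their list. The part of that strength in the distances was not tested. Within the shared set, the span of the 3 summits also varied with signal. It had a median of 20 bp in the decile with the highest NPC fold enrichment and 28 bp in the decile with the lowest. In the 354 regions with more than 1 peak of some list the median was 31.5 bp and the upper quartile was 387 bp. Summits of 270 shared regions were over 100 bp apart.

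The order of the regions by strength was only partly shared between the lists. Across the 26435 regions, Spearman's rho of fold enrichment was 0.54 between ES serum and ES 2i, 0.38 between NPCs and ES serum and 0.32 between NPCs and ES 2i. The regions are not independent replicates, each library enters 2 of these values, and the set was chosen by the same peak calls. Pearson's r of log2 fold enrichment was 0.56, 0.39 and 0.34 for the same pairs. Peak widths gave rho of 0.66, 0.43 and 0.40. Of the 2643 regions in the top decile of each list, NPCs and ES serum shared 28.4%, NPCs and ES 2i 27.8% and both ES lists 33.7%. Top deciles of 2 unrelated orders would share 10%. In all 3 lists together, 350 regions, or 13.2% of a decile, stood in the top decile, where unrelated orders would share fewer still than for 2 lists.

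The strongest regions were taken as those whose worst rank over the 3 lists was best. At the top was chr7:108561107-108561842, with fold enrichments of 52.6 in NPCs, 79.6 in serum and 75.9 in 2i, which ranked 40, 20 and 12 among the shared regions of those lists. The region chr7:19591665-19592286 followed with 51.2 in NPCs, 72.0 in serum and 73.0 in 2i. The region chr3:144383223-144383802 had 68.9 in NPCs and 92.4 in serum, ranks 3 and 5, and 66.8 in 2i, rank 53. Its 3 summits lay within 3 bp. The region chr9:77886833-77887247 had 49.7 in NPCs, 70.5 in serum and 75.4 in 2i, and a region of chromosome 18 had 56.7 in NPCs, 68.5 in serum and 67.3 in 2i.

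Other regions stood near the top of one list and near the bottom of another. The region chr16:76866304-76866679 had a fold enrichment of 33.7 in NPCs, rank 794, against 14.8 in serum, rank 22135, and 5.57 in 2i, rank 26407. The region chr10:93408164-93408408 ranked 660 in NPCs, against 25940 in serum and 26086 in 2i, and chr7:116077474-116077866 ranked 405 in NPCs, against 15736 in serum and 25781 in 2i. These 3 had the largest difference of ranks in favour of NPCs over 2i. In the other direction, chr19:57799388-57799838 had 6.00 in NPCs, rank 26236, against 33.6 in serum, rank 6121, and 49.6 in 2i, rank 479. The region chr7:17051863-17052381 ranked 25678 in NPCs, against 3068 in serum and 141 in 2i, and chr2:24982590-24983155 ranked 25974 in NPCs, against 748 in serum and 441 in 2i. The comparison between lists is one of ranks, since their folds have no common scale. All 6 regions counted as shared although their rank moved through most of the range, and with 1 library per condition these shifts have no error.

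The weakest regions that counted as shared sat at the threshold of the peak calls. No peak of any list had a −log10 p below 8.22. The 2 regions with the lowest value, chr11:115234130-115234349 and chr5:141228625-141228972, each had an NPC fold enrichment of 5.27. The first had 9.89 in serum and 9.88 in 2i, and the second 11.7 in serum and 26.1 in 2i. The third, chr10:63552955-63553217, had 3.64 in NPCs, 6.21 in serum and 12.8 in 2i. On the other side of the rule, the strongest region without an NPC peak, chr6:124422783-124423319, had 65.9 in serum and 53.9 in 2i. The next, chr7:35634529-35635086, had 49.5 in serum and 54.4 in 2i, and chr5:149186988-149187494 had 46.9 in serum and 46.2 in 2i. A region outside the set was therefore not always weak in the lists that held it.

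A few shared regions combined small p-values with very low fold enrichment. In 8 regions at least 1 list had a fold enrichment below 4, and in 3 of them all lists did. The lowest was chr2:98502398-98503043, with 1.66 in NPCs, 1.70 in serum and 1.97 in 2i. It was followed by chr9:35112846-35113147 with 1.70 in NPCs, 1.66 in serum and 1.97 in 2i, and by chr2:98506417-98507464 with 1.83 in NPCs, 1.97 in serum and 2.15 in 2i. Their −log10 q was 7.97 to 10.7 in NPCs, 13.1 to 22.2 in serum and 21.4 to 26.0 in 2i.

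The distance between the midpoints of neighbouring shared regions had a median of 35.0 kb (95% exact binomial interval 34.3 to 35.7 kb), with an interquartile range of 11.5 to 91.7 kb. Regions of both ES lists only, which were fewer, had a median spacing of 46.9 kb, and all merged regions together 15.7 kb. Of the distances between shared neighbours, 22.8% were below 10 kb, 1.65% below 1 kb and 1.07% above 1 Mb. The closest pair, chr14:69764568-69764939 and chr14:69764961-69765276, had midpoints 0.365 kb apart. Both regions stood in the lower part of the order in every list. Their fold enrichments were 10.1 and 10.5 in NPCs, 14.3 and 13.8 in serum, and 18.4 and 5.57 in 2i. The widest stretch with no shared region measured 9963 kb, between chrX:23390455-23390772 and chrX:33353273-33353587, and 3 other merged regions lay in it.

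The nearest merged region of a shared region was itself shared in 49.1% of cases. For regions of both ES lists only, the nearest region was shared in 40.4%, and for the regions of a single ES list in 42.1% for serum and 41.4% for 2i. For regions of the NPC list alone it was 48.4%. The share of all merged regions that were shared, 43.6%, lies between these values. Neighbours enter each other's counts, and no test was made. Counting only neighbours within 10 kb gave 50.3% for shared regions and 41.1% for regions of both ES lists only. It gave 50.6% for regions of the NPC list alone, 51.2% for NPC and ES 2i only, and 49.2% for NPC and ES serum only. The value of the shared regions was thus not particular to them. The longest unbroken run of shared regions along a chromosome had 16 regions over 500.1 kb, from position 34753256 to 35253367 on chromosome 2. Of 13986 runs, 7564 were single regions and 725 had at least 5.

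The shared regions were unevenly spread. In bins of 1 Mb the median was 8 regions, 8.81% of 2588 bins held none, and the 541 bins with most regions, 20.9% of all bins, held 50% of them. The bin with most, chosen after its value was seen, began at position 80000001 on chromosome 10 and held 62 shared regions of 98 merged regions, and the bin before it held 59 of 99. The bin starting at 35000001 on chromosome 17, inside the Oct4 5C locus, held 51 of 112.

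By chromosome, shared regions were most dense on chromosome 11 and least dense on chromosome X. Density was counted over the span from the first to the last merged region of a chromosome. Chromosome 11 had 16.6 shared regions per Mb and chromosome 19 had 13.9, against 10.7 per Mb over all 19 autosomes. Among autosomes, chromosome 3 was lowest with 8.26. Chromosome X had 4.15 per Mb, 671 regions in all, with a median spacing of 76.3 kb. The density of all merged regions was also lowest on chromosome X, at 9.76 per Mb, leaving aside chromosome Y. The ES lists had 3 and 4 peaks on chromosome Y in serum and 2i, and the NPC list had none, so no shared region lay there.

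The share of merged regions found in all 3 lists varied much less between chromosomes than the density did. It was highest on chromosome 19, at 46.9% (95% exact Clopper-Pearson interval 44.5% to 49.2%), and lowest on chromosome 5, at 39.0% (37.6% to 40.5%), with chromosome 8 at 39.8% (38.1% to 41.4%). On chromosome X it was 42.5% (40.1% to 45.0%), against 43.6% on the autosomes. These intervals cover counting error only and take merged regions as independent. Chromosomes 19 and 5 were picked as the extremes by their values, and no test between chromosomes was made. Fold enrichment of the shared regions was lowest on chromosome X in every list. Its median there was 13.3 in NPCs, 17.4 in serum and 17.4 in 2i. On the autosomes the medians lay between 15.0 and 16.2 in NPCs, 22.8 and 26.5 in serum, and 22.1 and 24.9 in 2i. The labels give the ES line as male, and the sex of the mice behind the NPCs is not given in them. The part of chromosome copy number in these values was not tested.

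**Figure D4:**
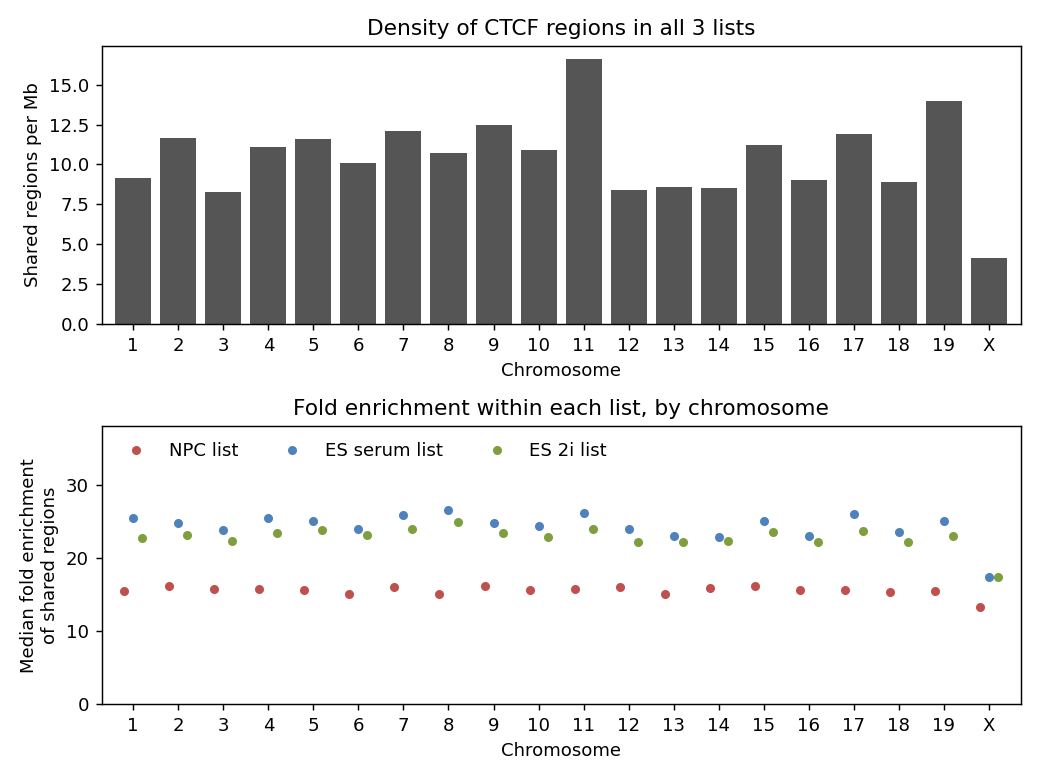
Upper panel, shared regions per Mb (vertical axis) on each chromosome (horizontal axis); chromosome 11 has 16.6 and chromosome X 4.15. Lower panel, median fold enrichment of shared regions within the NPC, ES serum and ES 2i lists; the points of chromosome X, 13.3, 17.4 and 17.4, are the lowest of their list.

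At the 7 loci covered by 5C, 185 of 429 merged regions were shared, or 43.1%, close to the genome-wide share. The locus named for Oct4, a transcription factor of pluripotent cells, held 87 shared regions and the Nestin locus, named for an intermediate filament gene of neural progenitors, held 43. The Nanog locus had 23 and the Olig1-Olig2 locus, named for transcription factors of the oligodendrocyte lineage, had 20. The Sox2 and Klf4 loci had 6 each, and the gene desert had none among its 3 merged regions. Shared regions made up 50.6% of merged regions in Nestin, 48.1% in Oct4, 42.6% in Olig1-Olig2, 36.5% in Nanog and 23.1% in Klf4, and in Sox2 they were 6 of 24. In the Klf4 locus 16 of 26 merged regions, and in the Sox2 locus 11 of 24, were instead in both ES lists only.

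By worst rank, the strongest shared region of a locus stood high in every list at Oct4, while at Sox2 it stood near the middle of the order in NPCs. At Oct4 it was chr17:36130534-36131159, with fold enrichments of 38.4 in NPCs, 52.4 in serum and 50.3 in 2i. At Nanog it was chr6:122619279-122619845, with 43.3 in NPCs, 41.2 in serum and 48.8 in 2i. At Nestin, chr3:87572745-87573383 had 29.0 in NPCs, 46.6 in serum and 62.9 in 2i. At Klf4, chr4:55493256-55493676 had 28.9 in NPCs, 35.2 in serum and 56.0 in 2i, and at Olig1-Olig2, chr16:91081691-91082065 had 25.4 in NPCs, 33.2 in serum and 29.5 in 2i. At Sox2, chr3:34539668-34540130 had 14.6 in NPCs, rank 14574, 47.4 in serum, rank 1195, and 43.8 in 2i, rank 1125.

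Contact counts were a readout that did not enter the choice of regions. Each library's counts were added up per pair of 16 kb windows. They were set against the mean count per primer pair at the same distance in the same locus, on a log2 scale with 0.5 added to both. The loci had 429 windows with a primer fragment, and 146 windows held a shared region. Window pairs with a shared region in both windows were compared with pairs that had no CTCF peak of any list in either window. Pairs with CTCF peaks but no shared region were left out of the comparison, and windows with a shared region could also hold other peaks. The comparison therefore does not set shared regions apart from other CTCF peaks. Within a locus, the pairs with shared regions had the higher median in 32 of 36 combinations of 6 loci and 6 libraries. The exceptions were the 4 NPC and ES serum libraries at Klf4, where only 15 pairs had a shared region in both windows. All libraries were scored on the same window pairs of a locus, so the 36 values are not independent. The pairs with shared regions were themselves below expected in every library at Oct4, with medians of -0.62 to -0.31, and at Klf4, with -0.82 to -0.28. Pairs without peaks had medians below 0 at every locus in every library. Since the expected count is a mean, a median below 0 does not by itself show depleted contact.

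In 16 kb windows this difference was largest in Nanog in the ES libraries. In the NPC and ES serum libraries it was smallest in Oct4 among the 5 loci other than Klf4. In Nanog, over 136 pairs with shared regions and 36 without peaks, it was 1.35 and 0.81 in the NPC libraries, 1.40 and 1.23 in serum, and 1.81 and 1.20 in 2i, on the log2 scale. These ranges overlapped between conditions. In the ES libraries the Nanog pairs with shared regions had medians of 0.0098 to 0.16, below the 0.22 to 0.43 of Nestin. The Nanog pairs without peaks had -1.65 to -1.11, so the size of the difference came mostly from them. In Nestin, over 484 and 170 pairs, it was 0.43 and 0.36 in NPCs, 0.32 and 0.23 in serum, and 0.45 and 0.38 in 2i. In Oct4, over 1675 and 444 pairs, it was 0.15 and 0.11 in NPCs, 0.011 and 0.0066 in serum, and 0.22 and 0.16 in 2i, and the 3 conditions did not overlap. The mean in serum, 0.0089, became -0.058 with peaks of −log10 q of at least 20 and -0.028 with lists of equal length. In 32 kb windows, where only 15 Oct4 pairs had no peak, the Oct4 mean was 1.40 in NPCs, 1.49 in serum and 1.60 in 2i. It was then no longer the smallest of the loci.

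In 2 loci the NPC libraries stood above both ES conditions. In Olig1-Olig2, over 120 and 594 pairs, the difference was 0.60 and 0.68 in NPCs, 0.26 and 0.29 in serum, and 0.17 and 0.19 in 2i. In Sox2, where only 10 pairs had a shared region in both windows and 900 had no peak, it was 1.5 and 1.67 in NPCs, 0.20 and 0.075 in serum, and 0.46 and 0.49 in 2i. With lists of equal length a single pair of windows was left at Sox2, and the mean difference was -2.45 in NPCs, -2.17 in serum and -2.25 in 2i, so the Sox2 values rest on very few regions. In 32 kb windows the mean in Olig1-Olig2 was 0.42 in NPCs, 0.15 in serum and -0.052 in 2i. With 2 libraries per group an exact two-sided permutation test cannot give a p below 0.33, so these differences between conditions were not tested. Libraries of a group came from labelled replicates whose separate culture is not stated.

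**Figure D5:**
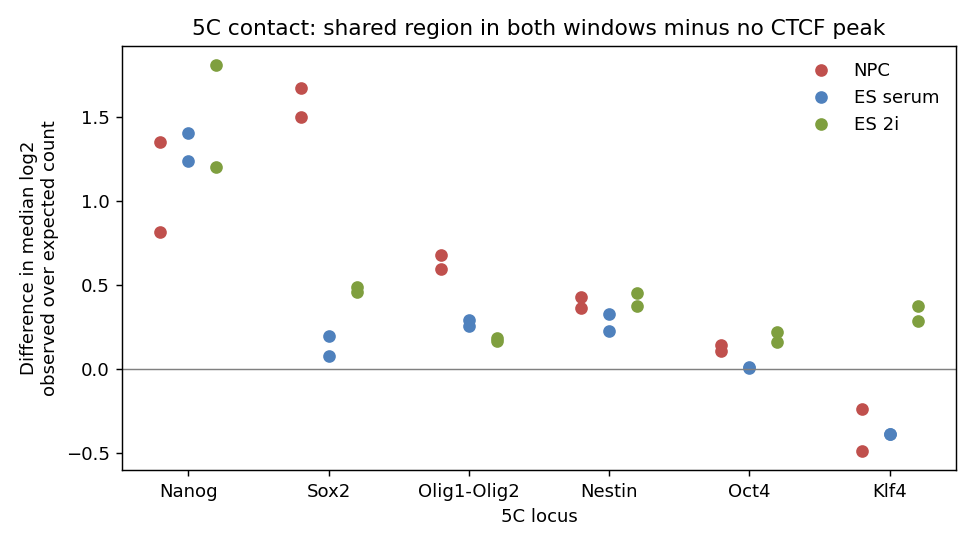
Difference in median log2 observed over expected 5C count (vertical axis) between window pairs with a shared region in both windows and pairs with no CTCF peak, at 6 loci (horizontal axis). Each point is 1 of 2 libraries of NPCs, ES cells in serum or ES cells in 2i; the points lie above 0 except those of NPCs and serum at Klf4.

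Over all loci together, the median of the 2440 pairs with shared regions was -0.15 ± 0.041 in NPCs, -0.35 ± 0.0081 in serum and -0.14 ± 0.043 in 2i (SD, n = 2 each). The 3041 pairs without peaks had -0.39 ± 0.064 in NPCs, -0.36 ± 0.016 in serum and -0.41 ± 0.083 in 2i. The 6164 pairs with a shared region in only 1 window had -0.29 and -0.23 in the NPC libraries and -0.26 and -0.18 in 2i. Those values lay between the other kinds of pairs. In serum they had -0.33 and -0.35, about the same as the pairs with shared regions in both windows. The pooled difference was 0.24 ± 0.023 in NPCs, 0.0071 ± 0.024 in serum and 0.27 ± 0.04 in 2i, and in serum it was above 0 in 1 library, 0.024, and below 0 in the other, -0.01. The pooled values mix loci in unequal parts, since Oct4 gave 1675 of the pairs with shared regions and Sox2 900 of those without peaks, so the values within loci are the better comparison. Primer efficiency was not corrected and its part in these values was not tested.

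Among looping pixels in the authors' deposited table, those of the class named constitutive had a shared region in both of their 4 kb bins in 54 of 1424 cases, or 3.79%, against 20 of 1820 background pixels, or 1.10%. The other 6 looping classes lay between 1.33% and 3.77%, the highest being the class named npc_2i in that table with 20 of 530, so the constitutive class did not stand apart from every other class. At least 1 bin held a shared region in 34.4% of constitutive and 17.5% of background pixels. That share was 39.4% in the class es_npc, above constitutive, 31.9% in npc_2i and 29.8% in npc_only. In the remaining looping classes it was 14.9% to 19.6%. Within the Oct4 locus both bins held one in 4.04% of 867 constitutive and 2.20% of 727 background pixels, and within Nestin in 5.32% of 263 and 1.27% of 237. Pixels of a loop adjoin each other and share regions, so these shares carry no interval. With bins widened to 16 kb, chosen after seeing the data, the shares were 32.3% of constitutive and 10.9% of background pixels. The class named es_npc then had the highest share, 44.2% of 104 pixels, and npc_2i had 31.1%.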

How the data were processed

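CTCF ChIP-seq peaks of NPCs, ES cells in serum and ES cells in 2i are the authors' own calls; the submitters' processing notes name MACS2 and mm9, with no version. For each peak the deposited lists hold the fold enrichment as a ratio, its −log10 p, its −log10 q and its summit. Peak names point to 1 library per list and carry the mark Rep2, while the labels list 1 CTCF library per condition with no replicate number. No source used here says which replicate the lists hold. The lists are named as downsampled. Read depth per library is unknown here, and the inputs were not analysed here.

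Peaks were merged at an overlap of at least 1 bp, and bedtools 2.31.1 gave the same 60688 regions. Each list entered with its peak of highest fold enrichment per region. Regions were named by rank within lists, weakest and strongest list, width, spacing and 5C locus. The members and this rule were chosen with earlier results of these data known.

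The deposited 5C tables hold the authors' raw counts per primer pair, with totals of 11784821 to 26533530 per untreated library, and Bowtie is named per the submitters' processing notes. Forward-reverse pairs within a locus were placed by the middle of each fragment, giving 90868 primer pairs over 15523 pairs of different windows. Sequences and genes at the regions were not analysed here. The steps were tested on simulated data. Alternatives were other overlap rules, a −log10 q of at least 20, lists of equal length, autosomes only, windows of 32 kb and leaving out each 5C library. Their effect on the 5C difference between kinds of window pairs was computed after seeing the data. The software was scipy 1.17.1 and pandas 2.3.3 under Python 3.11.15, with matplotlib 3.10.9 for the figures. Looping pixels were placed by the deposited 4 kb bins, and the date-like locus name in that table was taken as Oct4.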

Additional observations from a re-analysis of the deposited data

Results flagged for a closer look

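At the Klf4 locus, the difference in 5C contact between window pairs with shared CTCF regions in both windows and pairs with no CTCF peak pointed opposite ways in different conditions. It was -0.24 and -0.49 in the NPC libraries and -0.39 in both ES serum libraries, against 0.37 and 0.29 in the ES 2i libraries, on the log2 scale. The mean difference was -0.69 for NPCs minus ES cells in 2i and -0.72 for serum minus 2i. Every library of one condition lay on the other side of 0 from every library of the other, which is why both are listed, and the difference was not tested. The pairs with shared regions were themselves below expected in every library at Klf4, with medians of -0.82 to -0.28. In 2i the pairs without peaks were lower still, at -0.74 and -0.57, against -0.43 to -0.27 in NPCs and serum. Only 15 window pairs held shared regions in both windows at this locus, against 861 pairs without peaks. With peaks of −log10 q of at least 20, which left 10 such pairs, the mean was -0.39 in NPCs, -0.46 in serum and 0.075 in 2i.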

How the results depend on the processing

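Of 235 recomputed values, 10 changed sign, all of them 5C differences between window pairs with shared regions and pairs with no peak. A further 59 moved beyond the counting interval, the 1.5-fold range or the library SD. The 5C loci lie on autosomes, so leaving out the other chromosomes could not move 5C values. With 2 libraries per group, leaving out 1 cannot shift a mean by more than the SD. Such values could change sign but could not count as moved, and a replicate block could not move a mean. The number of shared regions lay between 18320 and 26433 under all alternatives, against 26435. When each list was limited to the length of the NPC list, the shares of peaks in shared regions were 64.2% for NPCs, 63.6% for serum and 63.6% for 2i, which have to be nearly equal in lists of equal length. The full lists had 92.5%, 52.8% and 47.3%. The width was then 421 bp, the spacing 47.5 kb and the summit span 22 bp. With −log10 q of at least 20, the shares were 93.0% for NPCs, 49.7% for serum and 45.1% for 2i, the width 408 bp, the spacing 45.3 kb and the summit span 22 bp. With summits within 100 bp, the shares were 91.2%, 52.2% and 46.8% for NPCs, serum and 2i. On autosomes only the width was 394 bp.

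The pooled 5C contact of pairs with shared regions in serum was -0.37 at −log10 q of at least 20, -0.30 with equal lists and -0.28 in 32 kb windows. In 2i it was -0.062 with equal lists and -0.099 in 32 kb windows. Leaving out 1 library gave -0.18 to -0.12 in NPCs, -0.35 to -0.34 in serum and -0.17 to -0.11 in 2i. With bins of 16 kb, chosen after seeing the data, the share of pixels with shared regions in both bins was 32.3% for constitutive, 10.9% for background and 9.22% to 44.2% for the other classes, es_npc being highest. Wider bins can only add regions, so these shares could not fall. They counted as moved against counting intervals, which ignore that pixels adjoin each other.

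The alternatives for the 5C difference were also added after seeing the data. The pooled difference in serum, 0.0071, was -0.018 at −log10 q of at least 20, 0.058 with equal lists, -0.025 in 32 kb windows, and -0.0101 to 0.0243 without 1 library, so it has no direction. In NPCs it was 0.22 at −log10 q of at least 20 and 0.32 in 32 kb windows, and in 2i 0.35 with equal lists. In serum the Oct4 difference was -0.058 at −log10 q of at least 20 and -0.028 with equal lists. In 32 kb windows the difference was -0.17 at Nestin in serum, where 3 pairs had no peak, and -0.052 at Olig1-Olig2 in 2i. At Oct4, where 15 pairs had no peak in those windows, it rose to 1.40 in NPCs, 1.49 in serum and 1.60 in 2i. At Sox2, equal lists left 1 pair, with -2.45 in NPCs, -2.17 in serum and -2.25 in 2i. Nanog had no pair without a peak in 32 kb windows and gave no value.

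The labels do not say that replicate numbers pair the 5C libraries, and deviations of same-numbered libraries from their group means correlated at 0.009 to 0.066 over 15523 window pairs. With a replicate block, the pooled difference of NPCs minus serum stayed 0.23, NPCs minus 2i -0.027 and serum minus 2i -0.26, since a balanced block leaves the means as they are. The standard error was 0.0093 with the block and 0.030 without. The pooled difference itself was higher in replicate 1 than in replicate 2 in every condition. It was 0.26 and 0.23 in NPCs, 0.024 and -0.01 in serum, and 0.30 and 0.24 in 2i. An exact paired test of 2 pairs cannot give a p below 0.5.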
